A study of Mus musculus with 6 samples.

Results

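The regions described here are 455 genomic intervals that were bound by NANOG in Esrrb-GFP high ESCs, were not called for OCT4 in those cells, and were called for OCT4 in Esrrb-GFP medium or Esrrb-GFP negative cells. They are part of 23767 distinct intervals in which at least 1 of the 2 factors was called, and of 9425 intervals with NANOG in Esrrb-GFP high cells. The members were chosen by the OCT4 calls of all 3 fractions and the NANOG call of Esrrb-GFP high cells, so these calls are a description and not a finding. OCT4 and NANOG ChIP-Seq was performed with 1 library per factor and fraction, 6 libraries in all, each from pooled ChIPs. The cells were E-GFPd1 ESCs, mouse E14Tg2a embryonic stem cells carrying a destabilised GFP after a 2a peptide at both Esrrb alleles (cell line label Esrrb-2a-GFPd-IBIH). They were grown in serum and LIF, fixed and sorted for GFP. Esrrb-GFP high cells were the brightest 10%, Esrrb-GFP medium cells the 15% immediately above negative, and the third fraction is labelled both Esrrb-Negative and Esrrb-low. All fractions come from the same targeted line and differ by GFP level at the time of sorting, so they are not successive time points of the same cells.

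OCT4 (Pou5f1) and NANOG are transcription factors of pluripotent cells. OCT4 binds the octamer, often beside SOX2 on a composite OCT-SOX element, and remains expressed in naïve and primed pluripotent cells. NANOG is a homeodomain protein and ESRRB an orphan nuclear receptor that binds DNA as a monomer at an extended half-site. Both belong to the naïve network of ESCs, and a decline of ESRRB accompanies the exit from self-renewal. Enhancers of this network are usually bound by several of these factors at once.

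A region is listed for a fraction or it is not. Peaks from the 6 libraries were first merged by the authors. A fraction was counted as having lost a region where it kept less than 50% of the strongest signal there, after scaling for depth. This rule alone does not decide whether a factor was listed, since some NANOG regions had OCT4 listed in no fraction. A region absent from the OCT4 list of Esrrb-GFP high cells may therefore still have carried OCT4 signal there. The lists hold no signal, score or read count. Depth per library is thus unknown, and no values can be given for regions just inside or just outside the threshold. With 1 library per condition there is no spread between replicates and no p-value. A share is followed by its 95% Wilson interval and a difference of shares by its 95% Newcombe interval. Both cover counting error over regions alone, and no variation between cultures.

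Sequences of 8 regions with a motif match, and of a region upstream of Nanog without one, are printed because the share of regions with these elements differed between the patterns of OCT4 binding described next. Each is the 200 bp around the centre of the region on the plus strand of mm9, in which motifs were searched on both strands. The window extends past the ends of narrower regions, so a match can lie outside the region itself. Capitals mark the match. In the first 4, at which OCT4 was called in Esrrb-GFP medium cells and not in negative cells, the match is the ESRRB element TCAAGGTCA or its reverse complement, with up to 1 mismatch.
Spred2, upstream, chr11:19819562-19819761: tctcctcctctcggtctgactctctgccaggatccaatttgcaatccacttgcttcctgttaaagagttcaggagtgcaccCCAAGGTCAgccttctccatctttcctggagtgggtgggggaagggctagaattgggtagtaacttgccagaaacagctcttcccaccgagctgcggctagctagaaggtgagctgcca
Dppa5a locus, nearest gene Gsta2, chr9:78207612-78207811: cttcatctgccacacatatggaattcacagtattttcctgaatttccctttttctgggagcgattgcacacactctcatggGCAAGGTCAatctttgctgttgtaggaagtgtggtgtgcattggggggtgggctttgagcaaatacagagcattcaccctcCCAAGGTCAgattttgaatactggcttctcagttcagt
Sox2, downstream, chr3:34659362-34659561: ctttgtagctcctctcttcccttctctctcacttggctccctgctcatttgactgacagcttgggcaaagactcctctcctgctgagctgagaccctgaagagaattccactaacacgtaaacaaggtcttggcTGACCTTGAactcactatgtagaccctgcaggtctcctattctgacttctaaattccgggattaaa
Epha4, intron, chr1:77443792-77443991: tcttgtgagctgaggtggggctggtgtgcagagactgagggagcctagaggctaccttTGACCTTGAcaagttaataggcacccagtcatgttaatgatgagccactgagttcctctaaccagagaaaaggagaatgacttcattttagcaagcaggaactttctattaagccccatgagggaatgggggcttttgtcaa
In the next 4, the capitals mark the octamer ATGCAAAT (Lin28a and Pole4) or a composite of CATTGT, 1 free base and ATGCAAAT with 2 mismatches (Lrrn1 and Ncald). OCT4 was called in both medium and negative cells at Lin28a and Lrrn1, and in medium cells at Pole4 and Ncald.
Lin28a, intron, chr4:133572282-133572481: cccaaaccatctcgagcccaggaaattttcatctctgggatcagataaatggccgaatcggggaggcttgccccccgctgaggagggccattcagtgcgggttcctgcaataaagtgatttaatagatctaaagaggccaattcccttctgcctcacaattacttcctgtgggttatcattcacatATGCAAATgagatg
Lrrn1, upstream, chr6:107412572-107412771: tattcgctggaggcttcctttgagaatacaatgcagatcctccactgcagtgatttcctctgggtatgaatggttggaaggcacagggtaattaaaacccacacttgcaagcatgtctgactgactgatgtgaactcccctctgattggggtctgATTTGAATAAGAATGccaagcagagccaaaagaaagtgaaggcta
Pole4, intron, chr6:82638762-82638961: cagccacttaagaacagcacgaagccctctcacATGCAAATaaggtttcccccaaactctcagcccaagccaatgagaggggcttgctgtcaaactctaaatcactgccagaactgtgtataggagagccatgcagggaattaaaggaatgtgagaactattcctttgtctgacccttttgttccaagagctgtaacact
Ncald, intron, chr15:37562372-37562571: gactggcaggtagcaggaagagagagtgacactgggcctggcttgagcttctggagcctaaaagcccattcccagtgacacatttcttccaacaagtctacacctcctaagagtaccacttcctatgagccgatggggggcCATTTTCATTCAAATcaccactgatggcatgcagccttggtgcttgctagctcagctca
The window upstream of Nanog held no match to either factor's element.
Nanog, upstream, chr6:122652622-122652821: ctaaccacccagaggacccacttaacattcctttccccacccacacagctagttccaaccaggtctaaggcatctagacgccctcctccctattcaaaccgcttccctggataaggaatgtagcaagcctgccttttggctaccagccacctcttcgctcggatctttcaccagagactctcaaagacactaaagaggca

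OCT4 was called in medium cells at 425 of the 455 regions, 93.4%, where 19.7% of all intervals had OCT4 in medium and not in high cells. It was called in negative cells at 179 regions, 39.3%, against 14.9% of all intervals with OCT4 in negative and not in high cells. Both counts follow from the rule and nothing is read from them. Divided by pattern, 276 regions had OCT4 in medium cells alone, 60.7% (95% interval 56.1 to 65.0). A further 149 had it in medium and negative cells, 32.7% (28.6 to 37.2), and 30 in negative cells alone, 6.59% (4.66 to 9.26). Regions that met the same OCT4 rule without NANOG in high cells numbered 5388 and were spread differently, with 37.8% in medium alone, 41.1% in medium and negative, and 21.2% in negative alone. Read the other way, NANOG was listed in high cells at 276 of 2311 regions with OCT4 in medium alone, 11.9% (10.7 to 13.3). It was listed at 149 of 2361 regions with OCT4 in medium and negative cells, 6.31% (5.40 to 7.36), and at 30 of 1171 with OCT4 in negative cells alone, 2.56% (1.80 to 3.63). These shares rest on the calls that chose the members and are a description.

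The NANOG calls of medium and negative cells played no part in the choice of members. NANOG was still called in medium cells at 245 of the 455 regions, 53.8% (49.2 to 58.4), where 47.7% of all NANOG intervals of high cells were called in medium cells. In negative cells it was called at 20 regions, 4.40% (2.86 to 6.69), against 2.51% of all NANOG intervals of high cells. Among the 276 regions with OCT4 in medium alone, 135 had NANOG in high cells alone and 136 in high and medium cells, while 4 had it in all fractions and 1 in high and negative cells. With OCT4 in medium and negative cells, 63 had NANOG in high alone, 75 in high and medium, 10 in all fractions and 1 in high and negative. With OCT4 in negative cells alone, the numbers were 9, 17, 3 and 1. NANOG in medium cells was thus found at 50.7% (44.9 to 56.6), 57.0% (49.0 to 64.7) and 66.7% (48.8 to 80.8) of the regions in these patterns, intervals that overlap one another. NANOG and OCT4 were listed together in medium cells at 140 regions with OCT4 in medium alone and 85 with OCT4 in medium and negative cells. Both patterns fix OCT4 in medium cells, so these counts restate the NANOG calls and nothing more is read from them.

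**Figure D1:**
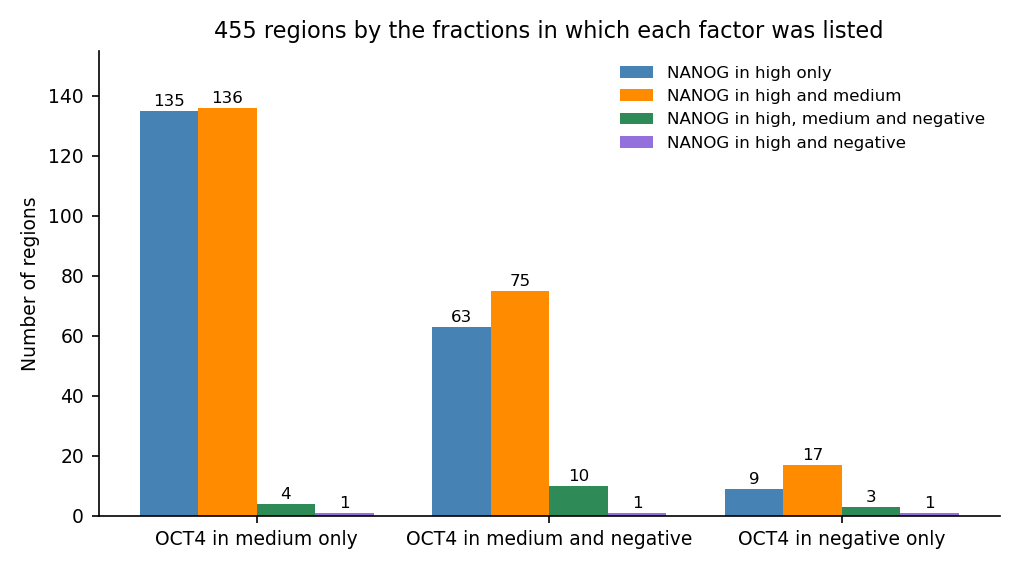
Number of regions (vertical axis) for each OCT4 pattern (groups of bars) and NANOG pattern (colours), with the count above each bar. The largest bars are the 135 and 136 regions with OCT4 in medium cells alone and NANOG in high cells alone or in high and medium cells, and the bars with NANOG in negative cells reach at most 10.

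Regions with NANOG in high cells and no OCT4 in any fraction numbered 5295, and those with both factors in high cells numbered 3675. NANOG was called in medium cells at 42.7% of the former (41.4 to 44.1), 11.1 percentage points below the 455 regions (95% interval of the difference 6.34 to 15.9). It was called at 54.2% of the co-bound regions (52.6 to 55.8), and the difference of -0.39 points has an interval from -5.25 to 4.42. In negative cells the shares were 4.40% for the 455 regions, 2.66% without OCT4 (difference 1.73 points, 0.13 to 4.06) and 2.07% at co-bound regions (difference 2.33 points, 0.71 to 4.66). The share in negative cells depended on width, as given next.

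Width moved with this result. The regions had a median width of 160 bp (quartiles 100 and 220, range 40 to 740), those without OCT4 60 bp, and co-bound regions 180 bp. Widths are those of peaks merged over all datasets, so a region called in more libraries can be wider. Among intervals of 40 to 60 bp, NANOG was called in medium cells at 21 of 36 regions, 58.3% (42.2 to 72.9), against 38.2% of intervals without OCT4. The shares were 55.5% and 50.1% at 80 to 120 bp, 47.5% and 43.6% at 140 to 200 bp, and 57.6% and 49.1% at 220 bp or more, in each case higher for the 455 regions and with overlapping intervals in the last 3 classes. At or above the median width of all intervals the difference was 5.54 points (0.36 to 10.7). NANOG in negative cells was found at 7 of 36 of the narrowest regions, 19.4% (9.75 to 35.0), against 3.13% of intervals without OCT4 and 6.79% of co-bound regions of these widths. It was found at 0 of 132 of the widest, where the interval reaches 2.83%, against 1.31% and 1.52%. The higher share over all widths was thus not seen in the widest class.

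**Figure D2:**
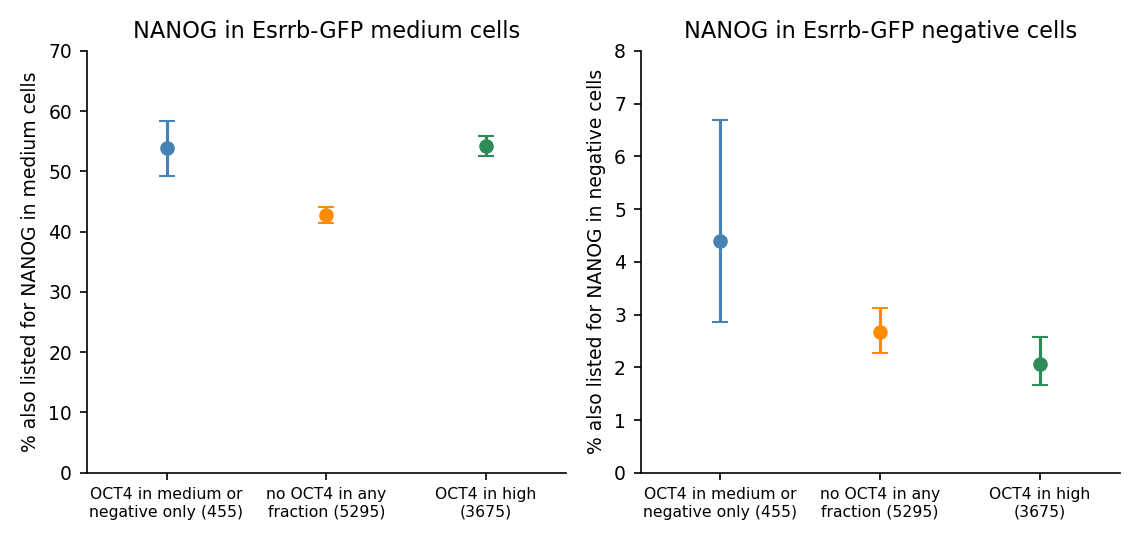
Percent of regions (vertical axes, different scales) also listed for NANOG in Esrrb-GFP medium cells (left) and negative cells (right), for NANOG regions of high cells divided by where OCT4 was listed. Points are shares and bars 95% Wilson intervals; in medium cells the 455 regions, at 53.8%, lie beside the co-bound regions at 54.2% and above the regions without OCT4 at 42.7%.

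The ESRRB element was found within 100 bp of the centre at 88 of the 455 regions, 19.3% (16.0 to 23.2). It was found at 11.2% of windows of the same length over all intervals, and at 7.91% of windows placed 10 kb downstream of the 455 regions. The share was 16.1% at NANOG regions without OCT4 (difference 3.29 points, -0.23 to 7.29), 15.6% at co-bound regions (3.78 points, 0.20 to 7.82), and 6.83% at regions with the same OCT4 rule and no NANOG in high cells (12.5 points, 9.07 to 16.4). An octamer or composite match, together called the OCT4 motif, was found at 28 regions, 6.15% (4.29 to 8.75), against 11.4% of all intervals and 1.76% of the downstream windows. This was above NANOG regions without OCT4 (3.38%, difference 2.77 points, 0.84 to 5.41). It was below co-bound regions (12.1%, difference -5.90 points, -8.06 to -3.11), and below the regions with the same OCT4 rule and no NANOG (12.2%, difference -6.10 points, -8.17 to -3.36). Both elements were held by 3 regions, the ESRRB element without the OCT4 motif by 85, the reverse by 25, and neither by 342. None of the 13 motifs searched was found at 181 regions. These combinations were not counted over all intervals or in the comparison groups, and nothing is read from them.

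The elements differed with the pattern of OCT4. The ESRRB element was present at 69 of 276 regions with OCT4 in medium cells alone, 25.0% (20.3 to 30.4), and at 19 of 149 with OCT4 in medium and negative cells, 12.8% (8.32 to 19.1), a difference of 12.2 points (4.36 to 19.3). It was present at 0 of 30 regions with OCT4 in negative cells alone, where the interval reaches 11.4%. The OCT4 motif ran the other way, with 10 of 276 regions, 3.62%, in the first group and 17 of 149, 11.4%, in the second, a difference of -7.79 points (-14.1 to -2.70). For the octamer alone, and with 1 mismatch in the composite, it was -3.81 points (-9.21 to 0.25). Of the 30 regions of the third group, 1 held it. The OCT4 calls that define these groups were used in choosing the members, whereas the sequence was not. Few ESRRB matches were exact, 15 of 88 matches in the first group and 3 of 19 in the second, and counting exact matches alone the difference was 3.06 points (-1.19 to 6.58).

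Where NANOG was not listed in high cells, the first and second OCT4 patterns differed in the same directions, at a lower level for ESRRB. There the ESRRB element was found at 9.53% of regions with OCT4 in medium alone, 5.70% in medium and negative, and 4.21% in negative alone, and the OCT4 motif at 8.31%, 14.2% and 15.6%. Between the first and second of these groups the differences were 3.84 points (2.25 to 5.46) for ESRRB and -5.84 points (-7.73 to -3.96) for the OCT4 motif. With OCT4 in negative cells alone, the OCT4 motif was not higher among the members, at 1 of 30, 3.33% (0.59 to 16.7). That interval is too wide to give a direction. At co-bound regions of high cells, the ESRRB element was found at 11.9% of those that kept OCT4 in negative cells and 19.8% of those whose OCT4 was listed in high and medium but lost from negative cells, and the OCT4 motif at 14.8% and 10.2%. Co-bound regions with OCT4 in high cells alone held the ESRRB element at 14.2% (11.4 to 17.6), an interval that overlaps the 10.4 to 13.5 of those that kept OCT4, and the OCT4 motif at 8.56% (6.37 to 11.4).

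**Figure D3:**
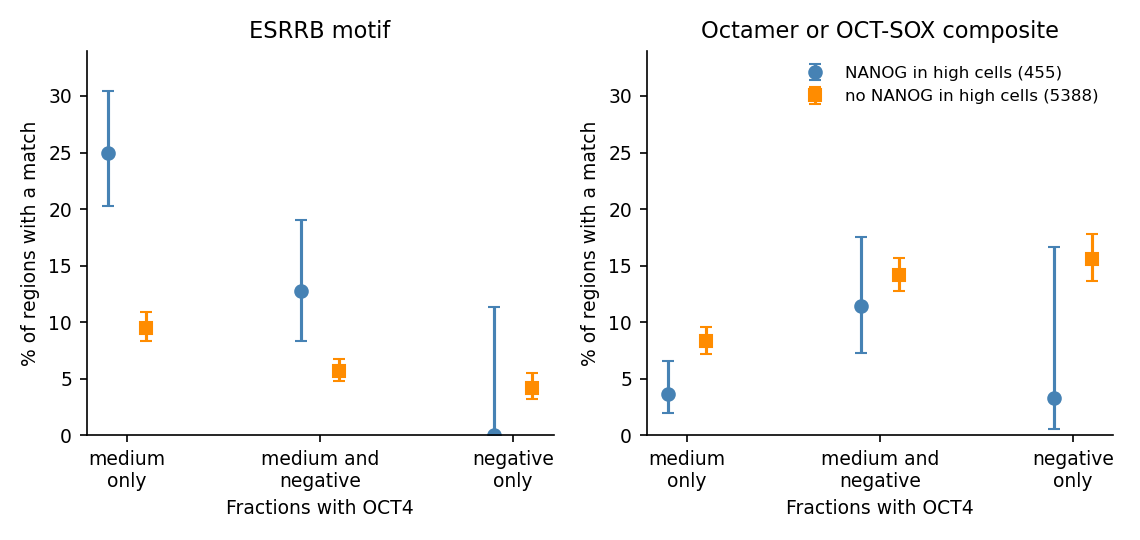
Percent of regions (vertical axes) with an ESRRB element (left) or an octamer or OCT-SOX composite (right) within 100 bp of the centre, by the fractions with OCT4 (horizontal axes), for the 455 regions (circles) and the 5388 regions without NANOG in high cells (squares). Bars are 95% Wilson intervals; the circles for ESRRB fall from 25.0% to 12.8% and 0, and those for the OCT4 motif are 3.62%, 11.4% and 3.33%.

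CATTGT, the core bound by SOX proteins, was found at 21.5% of the regions against 17.2% of all intervals and 9.23% of the downstream windows, and differed from NANOG regions without OCT4 by -3.98 points (-7.70 to 0.19). Regions with the same OCT4 rule and no NANOG in high cells held it at 10.3% (difference 11.2 points, 7.61 to 15.3). TAATGG, a homeodomain core, was found at 9.67%, below the 14.8% of NANOG regions without OCT4 (difference -5.17 points, -7.76 to -1.97) and near the 9.01% of the downstream windows. The GATA core AGATAA was found at 8.35% and at 12.4% of NANOG regions without OCT4 (difference -4.06 points, -6.45 to -1.03). Against regions with the same OCT4 rule and no NANOG, the differences were 3.04 points (0.56 to 6.17) for TAATGG, -2.80 points (-4.35 to -0.54) for the AP-1 element and -1.68 points (-2.30 to -0.36) for the SP element. For KLF, STAT, OTX, ETS and NFY elements the intervals of all differences from the 3 comparison groups included 0. These intervals were not adjusted for the number of motifs. Median GC content of the windows was 49.0% and ranged from 34.5% to 62.5%.

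The regions lay away from promoters. The centres of 19 regions, 4.18% (2.69 to 6.43), were within 1 kb of an annotated transcription start site, against 8.90% of all intervals and 13.1% of regions with the same OCT4 rule without NANOG in high cells (difference -8.95 points, -10.7 to -6.53). NANOG regions without OCT4 (5.04%) and co-bound regions (5.77%) differed from them by less than the intervals. By their centres, 56.0% were intergenic and 40.2% intronic, close to the 56.3% and 39.9% of all intervals. A protein-coding gene body contained 182 of the regions, lay within 20 kb of 291, and was over 100 kb from 71. These gene body counts were not made over all intervals, and nothing is read from them. The 13 regions within 1 kb of a protein-coding start site included 3 at which OCT4 was called in medium and negative cells. These lay in introns of Gpld1, a phospholipase that releases GPI-anchored proteins, Mtap1b, a microtubule-associated protein, and Phf21a, a reader of unmethylated histone H3. The Phf21a region (chr2:91933872-91933911) was also among the 20 with NANOG in negative cells, while the Gpld1 region (chr13:25047512-25047651) had NANOG in high cells alone.

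Some of the regions had OCT4 of high cells close by. An OCT4 interval of high cells lay within 20 bp of 14 regions, within 200 bp of 30, within 1 kb of 78 and within 10 kb of 154. Within 1 kb the share was 17.1%, against 11.6% at NANOG regions without OCT4, a difference of 5.59 points (2.28 to 9.41), and within 5 kb it was 27.7% against 20.0%, a difference of 7.66 points (3.59 to 12.1). Within 200 bp the shares were 6.59% and 7.16% (difference -0.56 points, -2.63 to 2.18). Against regions with the same OCT4 rule without NANOG in high cells the difference was 3.45 points (0.12 to 7.29) within 1 kb, 1.20 points (-1.57 to 4.57) within 500 bp, 2.84 points (-1.24 to 7.27) within 5 kb and 1.31 points (-3.07 to 5.95) within 10 kb. The median distance was 29860 bp, against 29520 bp in that group and 42340 bp at NANOG regions without OCT4. At the 14 regions within 20 bp of an OCT4 interval of high cells, the rule of exact intervals divides places that nearly touch. Without the 78 regions within 1 kb, the share with NANOG in medium cells was 54.1%. It differed by 11.2 points from the 4683 NANOG regions without OCT4 that met the same limit. Both values were close to those of all 455.

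**Figure D4:**
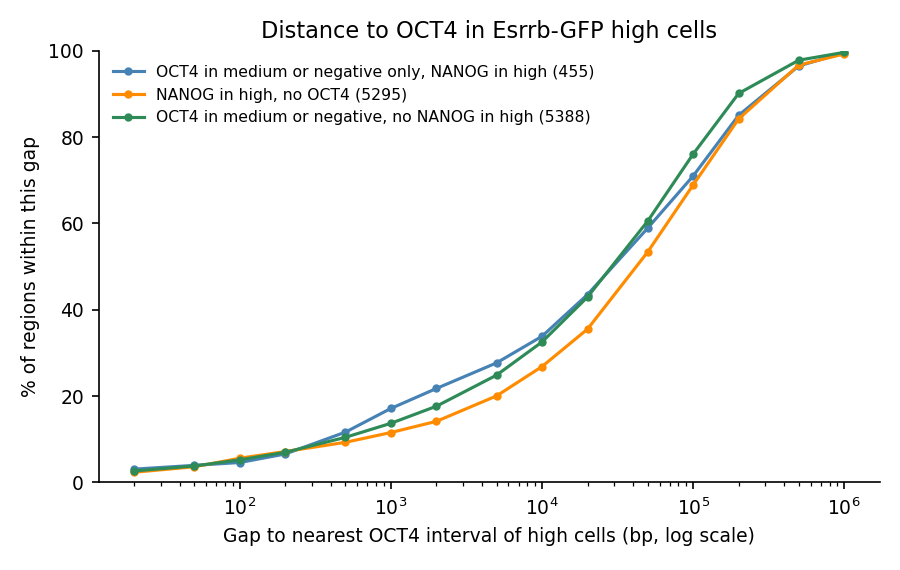
Percent of regions (vertical axis) whose nearest OCT4 interval of Esrrb-GFP high cells lies within a given gap (horizontal axis, bp, log scale), for 3 groups of regions. At 1 kb the 455 regions are at 17.1%, above the NANOG regions without OCT4 at 11.6%, and the 3 lines lie within 1 percentage point of each other at 200 bp and below.

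Lists of pluripotency, signalling, lineage and chromatin genes held 187 genes of the annotation. A total of 14 regions lay within 20 kb of 13 of these genes, 3.08% of the regions against 2.52% of all intervals. The naïve pluripotency list had 5 regions near 4 of its 30 genes, the formative and primed list 5 regions near 6 of 27, the LIF and STAT3 list 2 regions near 1 gene, and the FGF and ERK list and the Wnt list 1 region each. There were none near the core factors (21 intervals of any kind, 0.088% of all intervals) or germ layer genes (72, 0.30%). Nodal, BMP and TGF-beta genes (42, 0.18%) and chromatin and DNA methylation genes (78, 0.33%) had none either. These shares of all intervals are small, so nothing is read from the absences. Dnmt3b was counted in the formative and primed list. Of these 14 regions, 12 had an OCT4 interval of high cells within 5 kb, 85.7% (60.1 to 96.0), against 114 of the other 441, 25.9% (22.0 to 30.1). Among NANOG regions without OCT4 near listed genes it was 45 of 113, 39.8% (31.3 to 49.0). Both the Socs3 and the Dppa5a locus contributed a pair of regions, so the 14 are not all separate loci.

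Among naïve pluripotency genes, a region of 420 bp lay 4785 bp upstream of the start of Nanog (chr6:122652512-122652931). NANOG was listed there in high and medium cells and OCT4 in medium cells. A region of 300 bp located 180 bp from it had OCT4 in high and medium cells and no NANOG. In high cells the factors were thus listed side by side, and in medium cells OCT4 was listed at both places. At Tcfcp2l1, a transcription factor of the naïve network, an intronic region (chr1:120544652-120544851) had NANOG in high cells and OCT4 in medium cells, and the closest interval, 4960 bp away, had both factors in high cells alone. Pecam1, an adhesion molecule of undifferentiated ESCs, had an intronic region of 140 bp (chr11:106584352-106584491) with NANOG in high and medium cells. It lay between a NANOG region without OCT4 at 300 bp and a region with both factors in high and medium cells at 1140 bp. Near Dppa5a, which encodes an RNA-binding protein of pluripotent cells, were regions of 360 bp (chr9:78207532-78207891) and 480 bp (chr9:78222552-78223031), each with OCT4 in medium cells alone and with an OCT4 interval of high cells at 560 bp and 520 bp. The first is the region with 2 ESRRB matches printed above, and NANOG was listed there in high cells alone.

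Signalling genes gave a like picture. Upstream of Socs3, the feedback inhibitor of LIF and STAT3 signalling, regions of 520 bp (chr11:117836672-117837191) and 180 bp (chr11:117837832-117838011) lay 640 bp apart, the closest pair among the members. Both had NANOG in high and medium cells and OCT4 in medium cells, and a 40 bp OCT4 interval found in all 3 fractions lay 560 bp from the first. Spred2, an inhibitor of the Ras-ERK pathway, had a region 4716 bp upstream of its start with NANOG in high and OCT4 in medium cells. Intervals with OCT4 in all fractions flanked it at 1440 bp and 4440 bp. The intronic region of Wnt3, a Wnt ligand, was the exception among these genes, 197840 bp from OCT4 of high cells (chr11:103670472-103670771).

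Among formative and primed genes, Lin28a, whose product blocks let-7 maturation, had a region in an intron. NANOG was listed there in high cells and OCT4 in medium and negative cells. The octamer shown above lay in its window, past the end of the region. The region was 320 bp from another with OCT4 in all 3 fractions. The region beside Dnmt3b, a de novo DNA methyltransferase, also had OCT4 in medium and negative cells, with NANOG in high and medium cells (chr2:153465232-153465371, nearest gene Commd7). The region shared by Zic2 and Zic5, zinc finger transcription factors (chr14:122868012-122868131), and that 24526 bp past the start of Myc (chr15:61841392-61841551) had OCT4 in medium cells alone and OCT4 of high cells at 600 bp and 820 bp. An intronic region of Cdh2, which encodes N-cadherin, was the single listed region with OCT4 in negative cells alone, and NANOG was listed there in high cells alone.

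**Figure D5:**
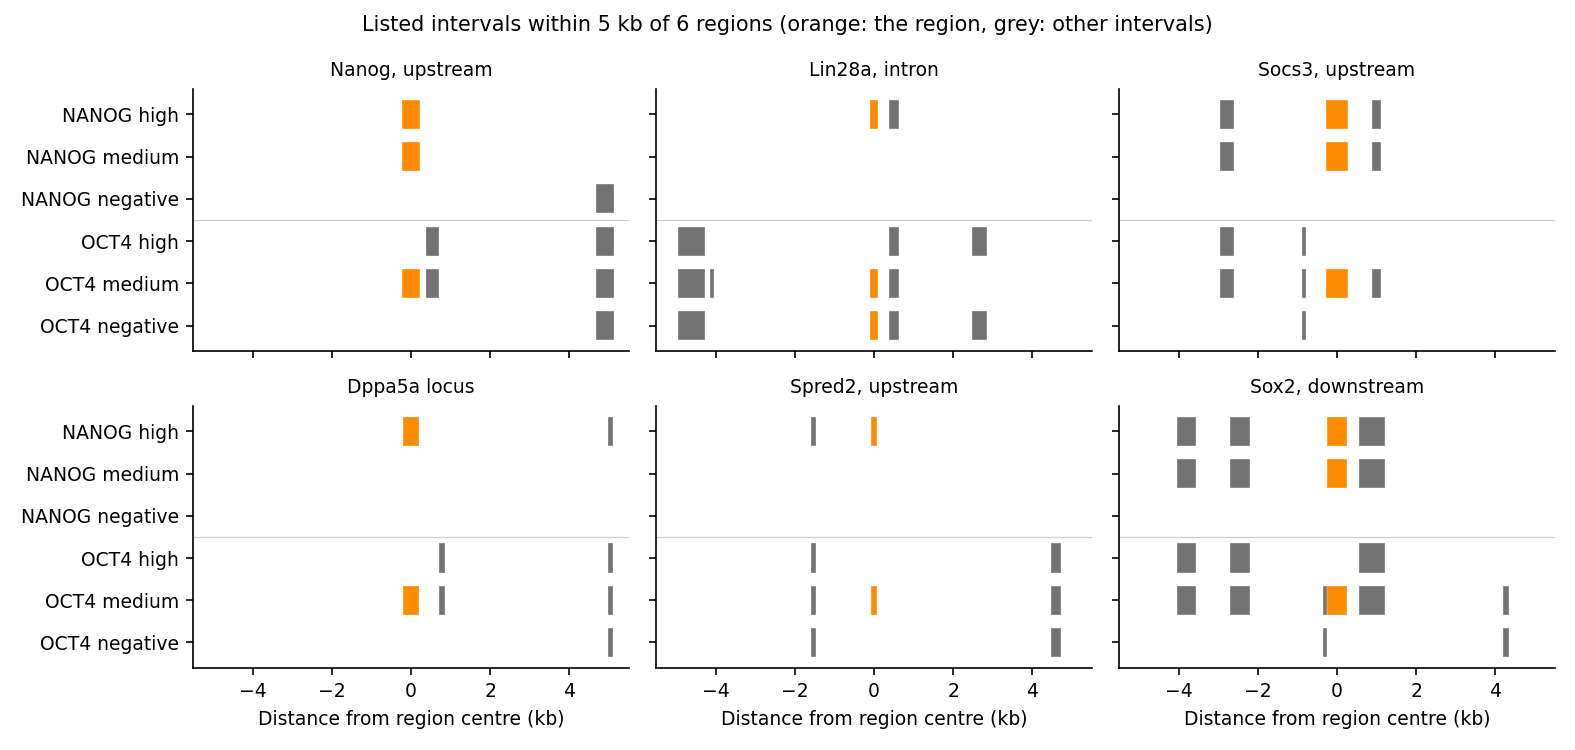
Intervals listed for each factor and fraction (rows) within 5 kb of 6 regions (panels), against the distance from the region's centre in kb. Orange boxes are the region itself and grey boxes other intervals, drawn to scale; in each panel the row of OCT4 in high cells is empty at the centre and holds at least 2 boxes to the side.

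The 10 widest regions, 460 to 740 bp, all had OCT4 in medium cells alone and none had NANOG in negative cells. Over all members these patterns were found at 60.7% and 4.40% for OCT4 in medium alone and NANOG in negative cells. The OCT4 calls were used in choosing the members, so this is a description. A further region of 460 bp fell outside the 10 by its coordinate. The widest, 740 bp, lay 74395 bp downstream of the start of Gadd45g, a growth arrest and stress response gene (chr13:52016072-52016811). It had NANOG in high cells alone and no OCT4 of high cells within 196700 bp. The 200 bp searched at its centre held no match among the 13 motifs, and the rest of the region was not searched. The next in width, 640 bp, lay upstream of Gip, which encodes an incretin hormone (chr11:95879172-95879811). A region of 460 bp, 110535 bp downstream of the start of Sox2 (chr3:34659232-34659691), had NANOG in high and medium cells. It held an exact ESRRB element. The region downstream of Sox2 stood within a series of regions with both factors in high and medium cells, at 340 bp, 2000 bp and 3360 bp, and 60 bp from a 40 bp interval with OCT4 in medium and negative cells. Pole4, encoding a DNA polymerase epsilon subunit, had an intronic region of 540 bp with the octamer. Others lay at Socs3, Dppa5a, Tbl1xr1, Mtap6 and 4933407C03Rik.

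NANOG was called in negative cells at 20 regions, which were narrower, with a median of 110 bp (range 40 to 200) against 160 bp for the other 435. The OCT4 calls of negative cells were used in choosing the members, and 179 members had one, 39.3%. Among the 20, as a description, OCT4 was called in negative cells at 15, in medium and negative cells at 11 and in negative cells alone at 4. Windows of 2 of them held the OCT4 motif, both composites. These regions lay upstream of Lrrn1, a leucine-rich repeat membrane protein (chr6:107412612-107412731), and in an intron of Ncald, a calcium sensor (chr15:37562432-37562511). The ESRRB element was in the windows of 2, in an intron of Tbl1xr1, a component of corepressor complexes (chr3:22020772-22020931), and near Gm6685. The matches at Lrrn1 and Tbl1xr1 ran past the end of the region. Those at Ncald and Gm6685 lay outside the region. The Lrrn1 and Gm6685 regions were each 20 bp from an OCT4 interval of high cells, and 3 of the 20 lay within 1 kb of one. All 3 regions for which Ptprg, a receptor tyrosine phosphatase, was the nearest gene belonged to these 20, and they differed in OCT4, which was called in medium cells alone at a pair of them and in negative cells alone at the third. Further regions of this kind lay near Grk5, Wdr76, Ica1, Plk2 and Lrig3.

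The regions were spread over the genome. They had 429 distinct nearest protein-coding genes, 24 of which were nearest to more than 1 region, and 12 regions lay within 10 kb of another, as pairs at Epha4, Socs3, Dlgap1, Med13l, Arhgef18 and 1700047G07Rik. At Epha4, an ephrin receptor, both had OCT4 in medium and NANOG in high cells alone, 6640 bp apart within an intron, and a region between them had both factors in high and medium cells. At Med13l, a subunit of the Mediator kinase module, both had NANOG in high and medium cells and lay within 620 bp of OCT4 of high cells. The pairs at Dlgap1, a postsynaptic scaffold protein, Arhgef18, a guanine nucleotide exchange factor, and 1700047G07Rik each joined a region with OCT4 in medium alone and another with OCT4 in medium and negative cells. Of the NANOG regions of high cells without OCT4 in high cells, the 455 made up 7.91% (7.24 to 8.64), and on single chromosomes 5.56% to 12.3%. Chromosome X held 13 of the 455, 2.86% (1.68 to 4.83), against 2.28% of all intervals and 3.68% of NANOG regions without OCT4. The counts of nearest genes and of close pairs were not made over all intervals, and nothing is read from them.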

How the data were processed

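NANOG and OCT4 ChIP-Seq lists of 3 sorted fractions of E-GFPd1 ESCs were analysed, grouped by antibody and fraction as labelled. The authors aligned reads to mm9 (Bowtie, per the submitters' processing notes) and called peaks with SISSRs in GeneProf. The deposited lists hold intervals after merging and thresholding, without signal, score or read count, so depth is unknown.

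Starts were raised by 1 so that positions count from 1. Lists were joined on exact intervals, of which none overlap. Genes came from GENCODE vM1 on NCBIM37, the same assembly, and motifs were searched within 100 bp of centres, with 2 mismatches allowed in the OCT-SOX composite and 1 in the ESRRB element. Members, gene lists and tests were chosen with earlier results of these data known. Regions named are those within 20 kb of a listed gene, with NANOG in negative cells, the 10 widest, those within 1 kb of a protein-coding start site with OCT4 in medium and negative cells, and those within 10 kb of another member. Where such a group held over 10, the widest and then the lowest coordinates came first, and further names were chosen after values were seen. Some named regions are not reported here. Python 3.11.15, numpy 2.4.6, pandas 2.3.3, scipy 1.17.1 and pysam 0.24.0 were used. A simulated set of 5000 regions was used to test the functions, and 13 of 13 known answers were recovered. Alternatives joined close intervals, or changed distances, widths, windows and mismatches.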

Additional observations from a re-analysis of the deposited data

How the results depend on the processing

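No paired analysis was possible because each factor and fraction has 1 library. Of 52 values recomputed under other settings, 39 stayed within the interval of the reported value, or within 1.5 times a count, and 13 moved beyond it. No difference whose interval excluded 0 changed sign. The difference from co-bound regions in NANOG in medium cells, -0.39 points with an interval that spans 0, became 0.0071 points with both groups weighted to the same widths. The difference in NANOG in medium cells from NANOG regions without OCT4 moved to 5.54 points (0.36 to 10.7) among intervals of at least the median width, and was 7.00 points with both groups weighted to the same widths, a setting added after the data were seen. Windows of 50 bp and 250 bp either side, which hold less and more sequence, gave an ESRRB element at 8.35% and 30.1% of regions and the OCT4 motif at 3.96% and 9.01%. The composite with 1 or 3 mismatches gave an OCT4 motif at 4.18% and 18.02%, and exact ESRRB matches were found at 3.74%. The difference between OCT4 patterns, examined after the data were seen, was -14.8 points for the OCT4 motif with 3 mismatches, -3.81 points (-9.21 to 0.25) with 1 mismatch, and 3.06 points (-1.19 to 6.58) for exact ESRRB matches. Start sites within 500 bp or 5 kb were found at 2.64% and 21.5% of regions, and 8 regions lay within 5 kb of a listed gene. Unknown depth limits every absence of a call, and the part of depth in these shares was not tested.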
